A study of Mus musculus with 18 samples.

Results

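The comparison described here sets an untreated C91A line of mouse embryonic stem cells against wild type cells. It rests on 6 of the 18 RNA libraries of the study, all 3 of the group labelled C91A_D4 and all 3 of the group labelled WT_D4, and covers every gene of the deposited counts. C91A_D4 is the control of a BAP1 C91A knock-in, that is, the engineered line before recombination. Its partner C91A_D4_4OHT is the same line after 100 nM 4-hydroxytamoxifen (4-OHT), given for 4 days to start Cre recombination. WT_D4 is wild type for BAP1, and the sources used here do not say whether it received 4-OHT. The groups used for reference are cKO_D4, the untreated control of a conditional BAP1 knockout, and cKO_D4_4OHT, the same line after 4-OHT. An RNF2-BAP1 double knockout with 4-OHT (dKO_D4_4OHT) completes the 6 groups. All cells, wild type included, received emricasan, a caspase inhibitor given to protect cells from death after BAP1 loss. The labels do not say whether the 3 libraries of a group came from separate cultures, how many clones each line stands for, or which strain each line came from. A difference between the groups is therefore a difference between these libraries of the lines, in which clone, strain, culture history and the engineered locus cannot be told apart.

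BAP1 is the catalytic subunit of an enzyme complex that strips ubiquitin off histone H2A, and it needs an ASXL partner to do so. Polycomb repressive complex 1, through RNF2, places that mark. C91A replaces the catalytic cysteine with alanine. Type I interferons act through a receptor that activates a complex of transcription factors. The complex binds a DNA element built around paired GAAA blocks in the promoters of interferon-stimulated genes, which then restrict viruses. Embryonic stem cells are known for a weak interferon response.

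Interferon-stimulated genes were the list with the largest share of higher members, so part of the promoter of 4 of them is shown before the values. The 4 were picked after their values were seen, from the members whose RefSeq promoter holds the element within the bases before the start site. Isg15 encodes a ubiquitin-like protein, Oas1a a sensor of double-stranded RNA, Ifit1 a protein that binds viral RNA, and Rsad2 the antiviral enzyme viperin. Each sequence reads 5′ to 3′ on the gene's strand, from RefSeq on GRCm38.p6. The intervals are chr4:156200845-156200926 (minus strand) for Isg15, chr5:120907526-120907575 (minus) for Oas1a, chr19:34640755-34640843 (plus) for Ifit1 and chr12:26456533-26456602 (minus) for Rsad2. They cover bases -108 to -27, -50 to -1, -134 to -46 and -150 to -81 from the start site. Capitals mark matches to GAAA, any 2 bases and GAAA again or, on the other strand, TTTC, any 2 bases and TTTC. Neighbouring matches overlap in Isg15, with 3 of them in one run, and in Oas1a, with 2.
Isg15: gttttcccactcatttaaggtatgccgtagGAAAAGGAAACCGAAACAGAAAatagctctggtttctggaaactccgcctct
Oas1a: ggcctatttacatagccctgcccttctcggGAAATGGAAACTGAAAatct
Ifit1: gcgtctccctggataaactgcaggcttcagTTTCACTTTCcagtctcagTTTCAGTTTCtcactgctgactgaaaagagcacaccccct
Rsad2: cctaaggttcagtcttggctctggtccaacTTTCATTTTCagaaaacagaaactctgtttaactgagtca

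RefSeq promoters, 250 bases before to 50 after the start, were matched for 21 of the 31 tested interferon-stimulated genes. Of these, 10 (47.6%) held this paired GAAA element on either strand. Over all tested genes the share was 342 of 12307 promoters (2.78%). Among genes at least 2-fold higher in the C91A line it was 22 of 150 (14.7%), and among those at least 2-fold lower 5 of 91 (5.49%). Promoters were matched for 67.7%, 72.9%, 65.2% and 61.9% of the genes of these sets. With under 80% matched, the shares are void as a check on the sets and only describe the promoters at hand.

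In megacounts (M), the libraries held 14.4, 23 and 14.9 M counts in the C91A line and 18.2, 22.3 and 20.9 M in wild type, against 8.11 to 23 M over the series. Levels below are CPM, counts scaled to the library total after scaling by TMM factors. A difference is a log2 fold change, C91A line minus wild type, with its standard error (SE), so that 1 is a doubling. A gene was called higher or lower where the quasi-likelihood test of edgeR gave a p under 0.05 after adjustment by Benjamini and Hochberg's method over all 16875 tested genes. The stem cell label held in all 6 libraries. Pou5f1, the gene of the pluripotency factor OCT4, was at 886 to 1060 CPM, Sox2 at 365 to 421 and Nanog at 201 to 264. Of markers of other cells, the visceral endoderm gene Afp had no more than 5 counts in any of the 6, Ttr had 0, and the fibroblast gene Lum had no more than 2. Other fibroblast genes were well detected, with Col1a1 at 7.61 to 15.9 CPM and Col1a2 at 4.46 to 11.7 CPM.

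The lines differed at many genes by a small amount. In the C91A line 2261 genes were higher (13.4% of those tested) and 2403 lower (14.2%), together 27.6%. Scaled by library totals instead of TMM, 2855 were higher and 1898 lower, which takes the higher share of calls from 48.5% to 60.1%. The median size of a called difference was 0.30 on the log2 scale, and 3788 of the calls (81.2%) were below 1.5-fold. At least 2-fold differences numbered 230 higher (1.36%) and 147 lower (0.871%). Ranges of the 3 and 3 libraries did not overlap in 38.1% of tested genes (18.8% higher, 19.3% lower).

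Bap1 itself was lower in the C91A line than in any other group. It lies on chromosome 14 (chr14:31251352-31259930, GRCm38.p6). Wild type libraries held 171, 183 and 182 CPM and C91A line libraries 93.8, 84.8 and 88.0 CPM, so the groups were far apart. The difference was -1.01 (SE 0.05, adjusted p = 6e-20), and against the untreated knockout line it was -0.93 (adjusted p = 2.7e-19). The other 4 groups stood at 139 to 170 CPM per library, including 163 to 166 in the same line after 4-OHT. Counts over the whole gene do not separate alleles or missing exons. Of 23 tested neighbours within 500 kb, 5 were called (21.7%, against 27.6% of all genes). Tnnc1, of cardiac troponin, was higher by 1.08, while Sema3g (-1.98), the dynein gene Dnah1 (-0.41), the protease gene Capn7 (-0.27) and Gnl3 (-0.19) were lower.

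Among the partners of BAP1 the differences were small. Of 12 complex genes, Bap1 included, 3 were higher and 2 lower (25% and 16.7%, against 13.4% and 14.2% of all genes). Ube2o, a ubiquitin-conjugating enzyme encoded on chromosome 11, which was shifted up as a whole (below), was higher by 0.31 (SE 0.05). Asxl1, which activates BAP1, was higher by 0.16 (SE 0.04). The third was Asxl3 (0.79, SE 0.26, adjusted p = 0.018), at 0.813 to 1.49 CPM in wild type and 1.76 to 2.28 in the C91A line, a call that was lost without wild type library 2 (adjusted p = 0.14) and in 3 other alternatives. Foxk1, a forkhead factor, was at -0.17 (adjusted p = 0.034) with overlapping ranges, and lost its call in 6 alternatives. No call was made for Asxl2 (-0.09), the host factor gene Hcfc1 (0.06), the glycosyltransferase gene Ogt (-0.10), Foxk2 (0.07), the demethylase gene Kdm1b (-0.04), Mbd5 (0.19) or Mbd6 (0.07). Rnf2 had an adjusted p of 0.038 at -0.16, but its libraries overlapped (107 to 122 CPM in wild type and 95.3 to 108 in the C91A line) and 7 alternatives took the call away.

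Of the other genes of polycomb complexes, 1 differed by at least 2-fold. Cbx2, a chromodomain subunit of polycomb complex 1, was at 79.6, 77.7 and 78.2 CPM in wild type and at 36.5, 37.6 and 36.3 in the C91A line (-1.09, SE 0.06). The untreated knockout line had nearly the same low level, 36.9 CPM on average. Of 27 genes of complex 1, 5 were higher and 4 lower (18.5% and 14.8%), shares near the 13.4% and 14.2% of all genes. Of 12 of complex 2, 5 were higher (41.7%), led by Phf19 (0.48), an accessory subunit, and 3 lower (25%), led by Ezh2 (-0.31), its methyltransferase. Off chromosomes 8 and 11, which as a whole differed between the lines (below), 3 of 9 were higher and 3 lower. Of the survival genes, Mcl1 was lower, from 1241, 1245 and 1393 CPM to 953, 951 and 944 (-0.45, adjusted p = 1.1e-11). Bcl2 was at 682, 772 and 935 CPM in wild type and 559, 548 and 598 in the C91A line, ranges that did not overlap, and just missed the threshold at -0.49 (SE 0.19, adjusted p = 0.051). It passed without wild type library 1 (adjusted p = 0.036), with the 6 libraries fitted alone (1e-05) and with no filter on low counts, and had an adjusted p of 0.24 without wild type library 3.

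**Figure D1:**
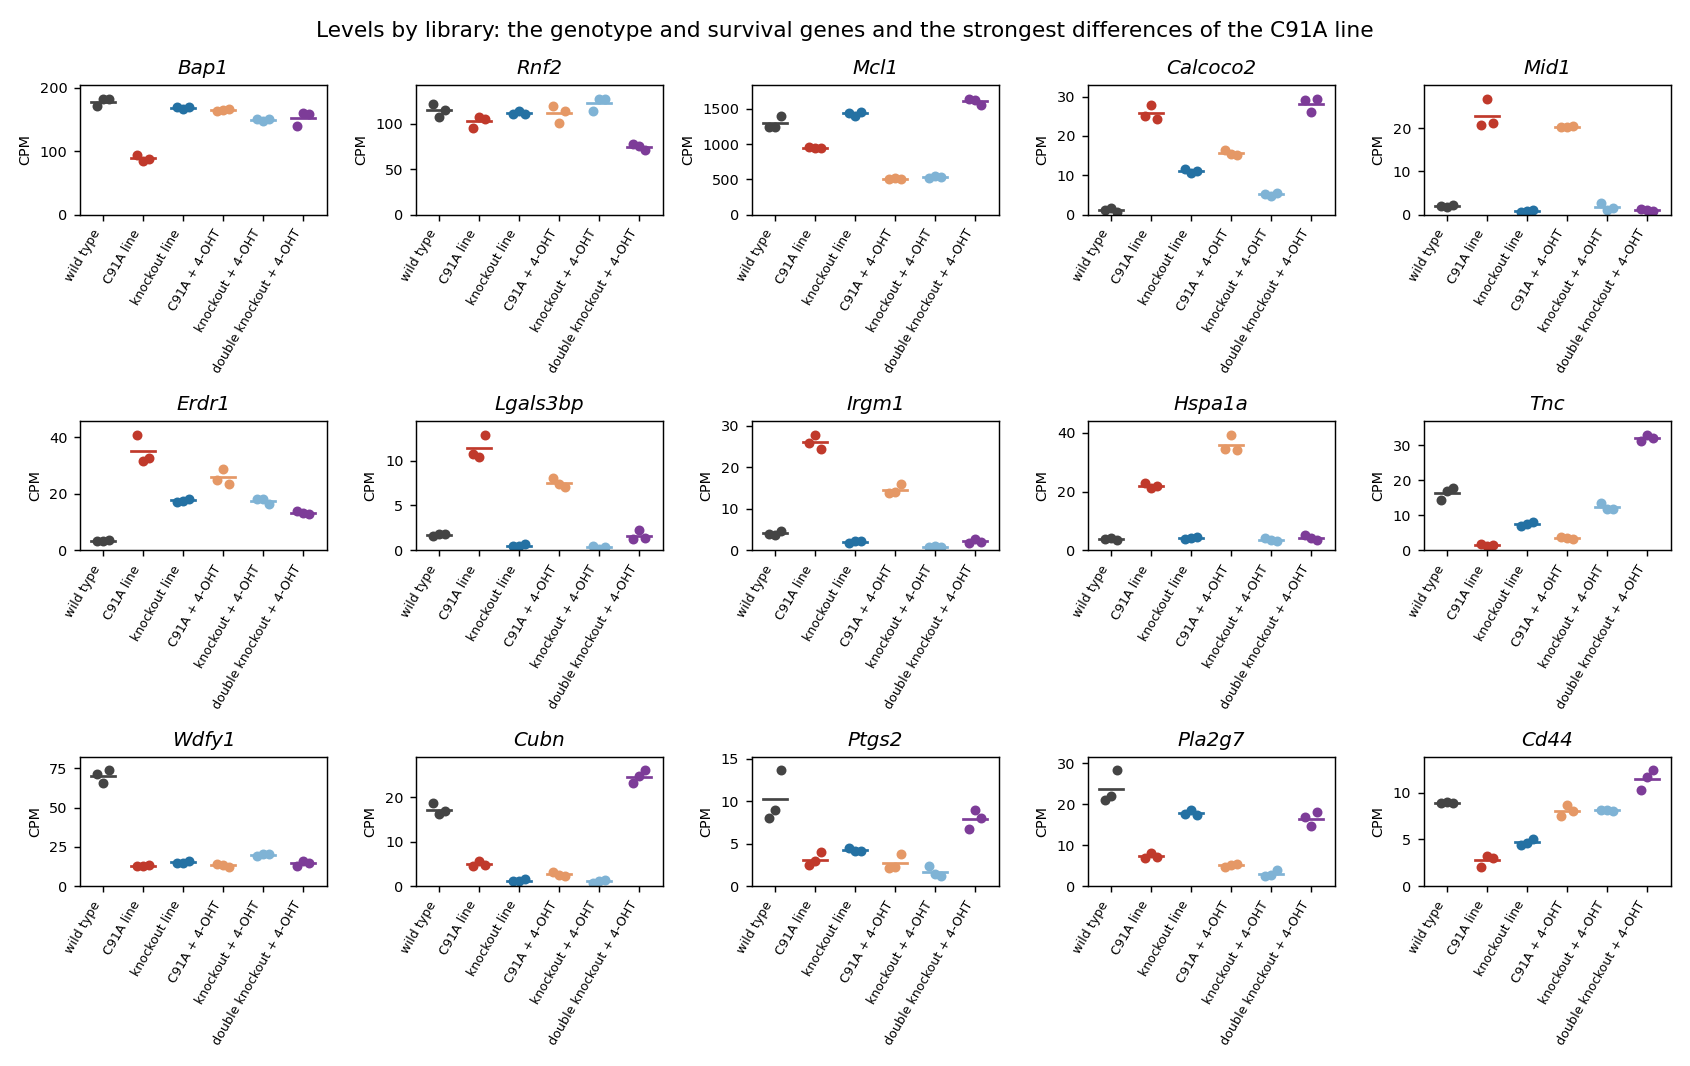
CPM by library (points, with the group mean as a line) in the 6 groups for Bap1, Rnf2, Mcl1 and the most different named genes. Bap1 is low in the 3 untreated C91A libraries only, at 84.8 to 93.8 CPM, while Calcoco2 and Wdfy1 set wild type apart from all other groups.

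Interferon-stimulated genes were higher in the C91A line almost throughout. Of 31 tested, 28 were higher and none lower (90.3%, against 13.4% of all genes; also 0 lower at an unadjusted p under 0.05 and with DESeq2), with a median of 1.02 against -0.003 over all genes tested, and 16 were at least 2-fold higher. Ranges did not overlap in 29 of them. Called neither way were Ifit2 (0.41), Dhx58 (0.29) and Cmpk2 (0.65), and Ifit3, Mx1 and Ifi44 had too few counts to be tested. The filter keeps a gene with enough counts in any group, so members near silent in wild type can enter through the C91A libraries. The counts of this list are therefore a description. Off chromosomes 8 and 11, which as a whole differed between the lines (below), 24 of 26 were higher, and leaving out a shifted stretch of chromosome 6 (below) as well, 23 of 25. Without any 1 library the count stayed at 27 or 28.

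A set of 4 of these genes went from near silence to clear expression. They were named for the size of their difference and may have passed the filter through the C91A libraries, so their values are a description. Ifi27, of an interferon-induced membrane protein, was at 0.440, 0.181 and 0.620 CPM in wild type and at 22.8, 19.6 and 19.7 in the C91A line (5.64, SE 0.22, adjusted p = 2.2e-23). Usp18, which removes ISG15 from proteins and dampens the receptor, was at 0.275, 0.316 and 0.238 against 7.73, 8.71 and 8.92 CPM (4.90, SE 0.28). Rtp4 was at 0.0953 to 0.226 against 4.48 to 4.88 CPM (4.80, SE 0.33), and Mx2, of an antiviral GTPase, at 0.220 to 0.429 against 2.73 to 4.25 CPM (3.64, SE 0.35). In all 4 the lowest C91A library stood well above the highest wild type library.

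The genes whose promoters are printed above followed the same order. Isg15 was at 1.43, 0.722 and 0.715 CPM in wild type and 9.63, 9.39 and 8.72 in the C91A line (3.30, SE 0.21). Oas1a was at 0.495 to 0.767 against 5.08 to 5.44 CPM (2.97), Ifit1 at 0.361 to 0.605 against 2.37 to 3.15 (2.67), and Rsad2 at 1.04 to 1.26 against 4.10 to 4.61 (1.97). None of the 4 had overlapping groups. The members with the element that are not printed ran from Oas3 (0.32) to Ifih1 (3.42). Matched members without it ran from Ifit2 (0.41) to Irf7 (2.69). A link between the element and the size of a difference was not tested. Irf9 and Stat2, genes of that complex also picked after their values were seen, differed less. Irf9 went from 10.7 to 13.4 up to 19 to 21.2 (0.74), and Stat2 from 64.0 to 69.9 up to 83.1 to 89.0 (0.36). Irf7, a factor that amplifies interferon production, was higher by 2.69.

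Upstream of these genes less was seen, apart from sensor genes that were counted in other lists. The RNA sensor genes Ifih1 (3.42) and Ddx58 (0.70) are members of the interferon-stimulated list and were higher, while the related Dhx58 was not called. Zbp1, a nucleic acid sensor gene counted with the death receptor genes, was higher by 1.03. Of 21 interferon genes in the files none had enough counts to be tested, 18 had 0 counts in all 6 libraries, and the highest had 2 counts in 1 library. Summed over the 3 libraries, they held 2 counts in wild type and 4 in the C91A line. In the separate list of receptor, sensor and signalling genes, 6 of 17 tested were higher and 2 lower (35.3% and 11.8%, median 0.06). Over all tested genes the shares were 13.4% and 14.2%. The highest of them was Irf1, a factor that binds similar elements (0.65, SE 0.07), followed by the feedback inhibitor Socs1 (0.46), Eif2ak2, which encodes the kinase PKR (0.45), and Irf3 (0.42). The call of Socs1 was lost without wild type library 1 (adjusted p = 0.063) or C91A library 3 (0.051). Genes of MHC class I and antigen processing were 4 higher and 3 lower of 19 (21.1% and 15.8%, against the same 13.4% and 14.2%). The class I gene H2-D1 was higher (0.42), while B2m, its light chain, was lower (-0.33).

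The untreated knockout line did not share the pattern. Against that line, 30 of the 31 interferon-stimulated genes were higher in the C91A line (of all genes, 17.6% were higher and 17.3% lower) with a median of 1.62. The knockout line against wild type had 2 higher and 11 lower (18.5% and 20.8% of all genes). Each pair of these 3 contrasts shares 1 group of libraries. Summed over the list, levels were 734 to 748 CPM in wild type, 1136 to 1183 in the C91A line and 670 to 675 in the knockout line. In the C91A line after 4-OHT they were 850 to 872 CPM, between the untreated line and wild type, with Ifi27 at 15.9 CPM and Usp18 at 4.26 CPM on average.

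**Figure D2:**
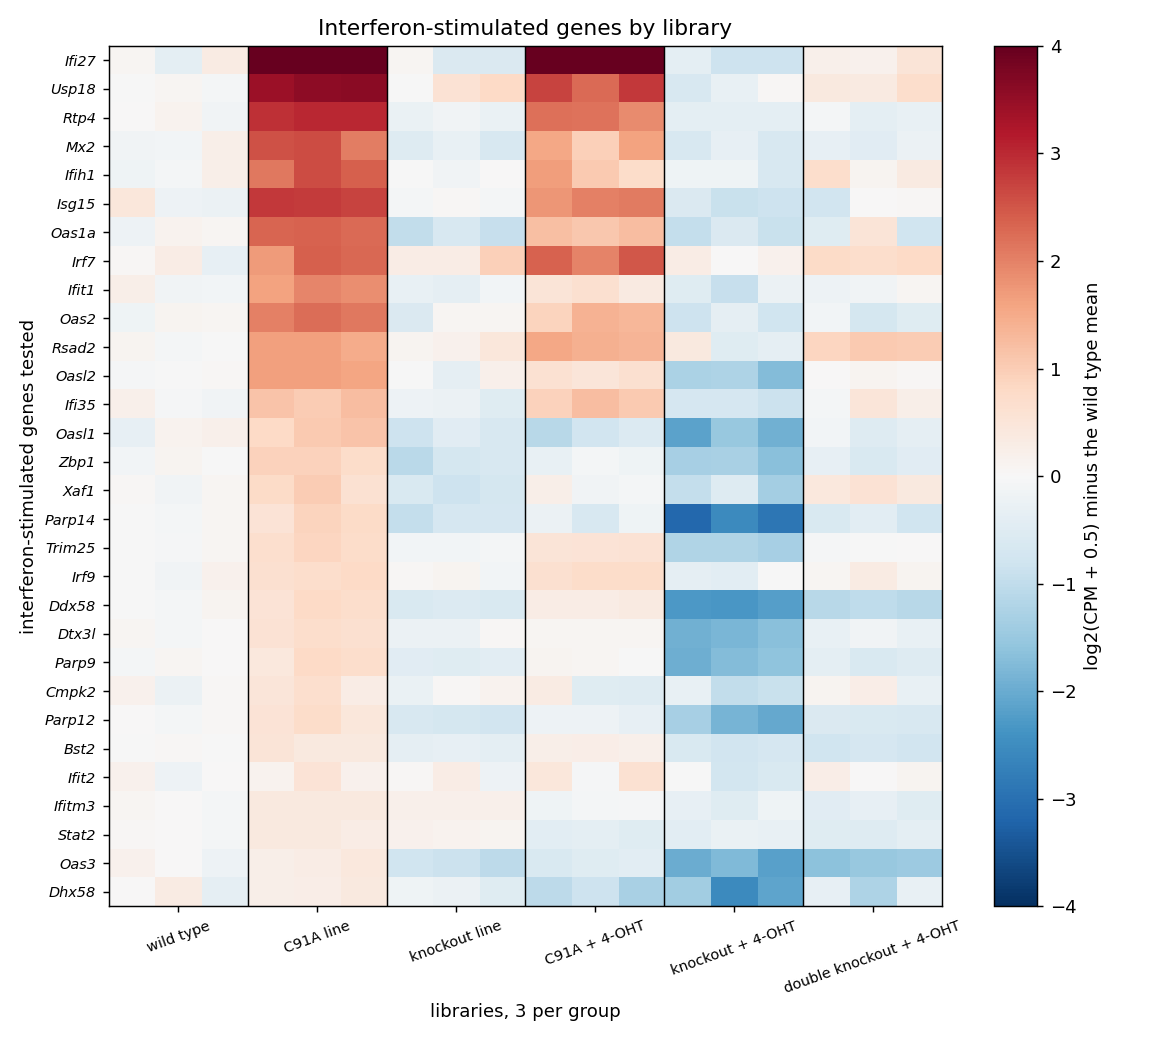
Each row is an interferon-stimulated gene (30 of the 31 tested are drawn) and each column 1 of 18 libraries, 3 per group; colour gives log2(CPM + 0.5) minus the wild type mean, red above and blue below, and values past 4 take the end colour. The 3 untreated C91A libraries are red in nearly all rows, and the same line after 4-OHT is red in the upper rows.

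Among called genes that averaged 2 or more in log2 CPM over the 6 libraries, the 10 highest included 4 known as interferon-regulated, of which Oasl2 is a member of the list above. They were put together after their values were seen, with no list or test behind the grouping. Lgals3bp, of a secreted glycoprotein, was at 1.59, 1.81 and 1.86 CPM in wild type and 10.8, 10.4 and 12.9 in the C91A line (2.68, SE 0.17). Irgm1, of an interferon-inducible GTPase, was at 3.90, 3.75 and 4.67 against 25.8, 27.9 and 24.5 (2.67, SE 0.12). The sensor-like gene Oasl2 was at 6.43 to 6.77 against 20.8 to 21.7 CPM (1.69), and Ubd, a ubiquitin-like modifier, at 3.30 to 4.56 against 11.6 to 12.3 CPM (1.59).

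First in that ranking was Calcoco2, on chromosome 11, which encodes the autophagy receptor NDP52. It was at 1.21, 1.67 and 0.762 CPM in wild type and 25.1, 28.0 and 24.4 in the C91A line (4.40, SE 0.14, adjusted p = 3.4e-26). The untreated knockout line lay between them at 11 CPM. The limit on the mean takes in both groups, and Calcoco2, Mid1, Erdr1 and Lgals3bp, 4 of the 10, were below it in wild type and passed it through the C91A libraries. The ranking is therefore a description. Mid1, a ubiquitin ligase gene that crosses the edge of the pseudoautosomal region in laboratory mice, was at 1.76 to 2.10 against 20.6 to 26.8 CPM (3.57), and Erdr1, also of that region, at 3.24 to 3.77 against 31.6 to 40.8 CPM (3.32). Reads from that repeated region are hard to place, so both levels are uncertain. The heat shock genes Hspa1a (2.46) and Hspa1b (1.74) are near-identical copies, and reads may be split between them. Hspa1a was at 3.62 to 4.29 against 21.3 to 22.9 CPM. Usp26, an X-linked deubiquitinase gene known from testis, was at 14.8 to 16.99 against 57.2 to 79.97 CPM (2.10).

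The 10 lowest genes by the same limit were Tnc, Wdfy1, Cubn, Ptgs2, Pla2g7, Cd44, Fbln2, Mir675, H19 and Enpp2. Of these, 3 (Tnc, Ptgs2 and Cd44) were below the limit in the C91A line and passed it through wild type. Tnc, of the matrix protein tenascin C, was at 14.3, 16.9 and 17.7 CPM in wild type and 1.83, 1.27 and 1.63 in the C91A line (-3.41, SE 0.14, adjusted p = 1.6e-22). Fbln2, of another matrix protein, was at 37.5 to 45.3 against 13.1 to 14.5 CPM (-1.57), and Cd44, of the hyaluronan receptor, at 8.86 to 9.03 against 2.10 to 3.27 CPM (-1.64). Ptgs2 (-1.72) makes prostaglandins, Pla2g7 (-1.68) cleaves platelet-activating factor, and Enpp2 (-1.49) makes lysophosphatidic acid. Wdfy1, an endosomal adaptor, went from 71.5, 65.4 and 73.5 CPM to 12.9, 13 and 13.6 (-2.42). The knockout line was as low, at 15.3 CPM, so for Wdfy1 wild type stood apart from both engineered lines.

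Few genes were near silent in one line and on in the other. Ratios of summed counts, scaled by library size, are given with an exact 95% interval, which covers counting error only. Serpinb2, a plasminogen activator inhibitor, had 24, 28 and 24 counts in wild type and 0, 2 and 0 in the C91A line, 33.2-fold higher in wild type (8.89 to 279). In the other direction the only genes that met the limits had no name in the tables used, with the Entrez identifiers 102637362 and 102632976. The first had 0, 0 and 1 counts in wild type and 55, 99 and 57 in the C91A line (ratio interval from 42.8), and the second 1 in each wild type library against 60, 90 and 55 (78.1-fold, 26.4 to 382).

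Pluripotency genes were slightly higher in the C91A line. Of 21 naive pluripotency genes 15 were higher and none lower (71.4%, and 0 lower at an unadjusted p under 0.05 in edgeR's test or with DESeq2), with a median of 0.23. Of 16 core genes 8 were higher and 1 lower (50% and 6.25%, median 0.13). Of all genes, 13.4% were higher and 14.2% lower. Off chromosomes 8 and 11 and the stretch of chromosome 6, which holds Nanog and the naive gene Dppa3 (0.48), 11 of 15 naive genes were higher (median 0.17) and 7 of 15 core genes. The member furthest apart, Spic, is weakly expressed (0.110 to 0.286 against 0.850 to 0.977 CPM, 2.19, SE 0.49). Socs3, the feedback inhibitor of LIF signalling, went from 102 to 106 CPM up to 150 to 177 (0.67, SE 0.05), and Klf2, a naive-state factor, from 78.8 to 85.5 up to 116 to 128 (0.58, SE 0.05). Nanog was higher by 0.32 (SE 0.04), and Tdgf1, of a Nodal co-receptor, was the 1 core gene that was lower (-0.29). Formative epiblast genes were 3 higher and 6 lower of 17 (17.6% and 35.3%, median -0.07). Higher were the factors Zic2 (0.85), Pou3f1 (0.68) and Zic5 (0.68). Lower were the factors Sox3 (-0.39, adjusted p = 0.037), Otx2 (-0.36) and Sall2 (-0.31), the junction gene Cldn6 (-0.29), and, by the least, Dnmt3a and Dnmt3b. The untreated knockout line against the same wild type libraries had 15 naive genes higher and 4 lower (median 0.26). Of the core genes it had 10 higher and 3 lower (median 0.18). Of all genes, 18.5% were higher and 20.8% lower in that contrast.

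Lineage markers differed in both directions. Of 20 tested primitive and visceral endoderm genes 12 were lower and 2 higher (60% and 10%), with a median of -0.57. Cubn, of the endocytic receptor cubilin, was at 18.6, 16.1 and 16.8 CPM in wild type and 4.61, 5.70 and 4.69 in the C91A line (-1.76). The receptor gene Pdgfra was at 5.10 to 5.53 against 1.36 to 1.95 (-1.60), and the factors Foxa2 (-2.87) and Sox17 (-1.55) were below 2.1 CPM in each of the 6 libraries. Of 18 trophoblast genes, 11 were higher and 2 lower (61.1% and 11.1%, median 0.54). On the X chromosome, the homeobox genes Rhox6 (28.2 to 30.1 against 65.7 to 75.4 CPM, 1.28), Rhox9 (22.8 to 26.8 against 59.9 to 64.0, 1.35) and Esx1 (15.8 to 19.96 against 40.2 to 45.6, 1.26) led the higher side. Rhox6 and Rhox9 are related copies. Neuroectoderm genes were 5 higher and 2 lower of 17 (29.4% and 11.8%), and mesoderm genes 2 higher and 3 lower of 14 (14.3% and 21.4%). Of all genes, 13.4% were higher and 14.2% lower. The untreated knockout line against the same wild type libraries had 0 endoderm genes higher and 17 lower (median -1.28), a shift in the same direction. Of the trophoblast genes it had 1 higher and 14 lower (median -0.84), the other direction. Of all genes, 18.5% were higher and 20.8% lower in that contrast. In bulk RNA, fewer cells of a type and less RNA per cell cannot be told apart.

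Markers of fibroblasts, which include the feeder cells that stem cells can be grown on, were 10 lower and 4 higher of 21 (47.6% and 19%, median -0.40). Lox, a collagen crosslinking enzyme, was at 5.37 to 7.10 CPM in wild type and 0.716 to 1.19 in the C91A line (-2.76), and Postn, S100a4 and Col6a3 were lower by 1.58 or more at under 2.1 CPM. The collagen genes Col1a1 (15.1 to 15.9 against 7.61 to 8.14 CPM, -0.98) and Col1a2 (9.62 to 11.7 against 4.46 to 6.25 CPM, -1.05) were lower too, while the receptor gene Pdgfrb was higher (1.28). The summed level of the list was 1711 to 1800 CPM in wild type and 1809 to 1925 in the C91A line, and most of it was Fn1, of fibronectin (1448 and 1572 CPM on average). Lum was at 0 to 0.0903 CPM and Dcn at 0.0678 to 0.451 CPM in the 6 libraries. Tnc, Fbln2 and Cd44 are also made by fibroblasts, and the part of such cells in their difference was not tested. Of 65 collagens, laminins and integrins, 7 were higher and 16 lower in the C91A line (10.8% and 24.6%, against 13.4% and 14.2% of all genes). The untreated knockout line against the same wild type libraries had 1 gene of the fibroblast list higher and 14 lower (median -0.50). In that contrast 18.5% of all genes were higher and 20.8% lower.

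Imprinted genes, whose level depends on which parental copy is methylated, were 8 higher and 5 lower of 33 (24.2% and 15.2%). Among all genes 13.4% were higher and 14.2% lower, so only the lower share was near that of all genes. A few members differed widely. H19, the noncoding RNA of a cluster on chromosome 7, was at 280, 289 and 307 CPM in wild type and 104, 102 and 101 in the C91A line (-1.51, SE 0.06). Mir675 (-1.52) lies within H19, so its counts are no separate measurement. Igf2, the growth factor gene of the same cluster, named here after its value was seen, went the other way, from 278 to 289 CPM up to 693 to 739 (1.32). Peg10, at 482, 491 and 554 against 187, 219 and 198 CPM (-1.34), and its neighbour Sgce, at 15.5 to 17.3 against 5.47 to 7.73 (-1.39), were lower together. Nnat, of a membrane proteolipid, was at 0.858 to 1.21 against 10.5 to 12.7 CPM (3.40). Of 13 DNA methylation genes 2 were higher, Dnmt1 (0.32) and Dnmt3l (0.31), and 2 lower, Dnmt3a (-0.14, adjusted p = 0.026) and Dnmt3b (-0.12, adjusted p = 0.027).

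Several metabolic and stress lists held more lower than higher genes, by small amounts. Of all genes, 14.2% were lower and 13.4% higher. Of 28 cholesterol synthesis genes 18 were lower and 3 higher (64.3% and 10.7%, median -0.21). Examples are Msmo1 (-0.47, SE 0.05) and Insig1 (-0.42, SE 0.04), a regulator of the pathway. Of 28 genes of the ATF4 stress response, 15 were lower and 1 higher (53.6% and 3.57%, median -0.20). Among the lower was the mitochondrial folate enzyme gene Mthfd2 (-0.37). Endoplasmic reticulum chaperones were 9 lower and 2 higher of 19 (47.4% and 10.5%), with Hspa5, the chaperone BiP, at 1255 to 1364 against 954 to 1015 CPM (-0.41). Of 32 p53 targets 12 were lower and 4 higher (37.5% and 12.5%). Death receptor and necroptosis genes were 9 lower and 1 higher of 22 (40.9% and 4.55%), led by Mlkl, the executor of necroptosis (-1.07, SE 0.18). Zbp1, a nucleic acid sensor that is also interferon-stimulated, was the 1 that was higher (1.03). Of 10 mitochondrially encoded genes 7 were lower and none higher (median -0.51), with 1 higher at an unadjusted p under 0.05 in edgeR's test and 0 with DESeq2. The nuclear genes of the respiratory chain were 16 higher and 12 lower of 80 (20% and 15%, median 0.05), and glycolysis and hypoxia genes were 5 higher and 10 lower of 30 (16.7% and 33.3%). The summed level of the mitochondrially encoded genes was 4121 to 5062 CPM in wild type, 3026 to 3397 in the C91A line and 3223 to 3675 in the knockout line.

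The shares below stand beside 13.4% higher and 14.2% lower over all genes. Germline genes were 10 lower and 5 higher of 28 (35.7% and 17.9%), with Ddx4, an RNA helicase of germ cells, at 53.7 to 59.4 against 30.7 to 33.0 CPM (-0.82). Of 21 YAP targets and contractile actin genes 10 were higher and 5 lower (47.6% and 23.8%), with the actin gene Acta1 at 4.06 to 6.65 against 10.9 to 15 CPM (1.35). Among immediate early genes, 4 of 12 were higher (33.3%), led by Egr1 (1.0) and Fos (0.82), and 1, Jund, was lower (8.33%, at -0.41). Replication genes were 6 higher and 7 lower of 26 (23.1% and 26.9%). Mitosis genes were 2 higher and 8 lower of 26 (7.69% and 30.8%), with Birc5, of survivin, higher (0.76). Of 86 ribosomal protein genes 23 were lower and 2 higher (26.7% and 2.33%). None of the 18 two-cell-like genes was called in edgeR's test or with DESeq2, and 3 were lower and 0 higher at an unadjusted p under 0.05. HOX genes were 1 higher and 2 lower of 35 (2.86% and 5.71%), all 3 below 0.5 CPM, and the calls of Hoxa13 and Hoxa9 were lost with DESeq2 (adjusted p = 0.057 and 0.083). The 22 tested models of the gamma protocadherin cluster were all called lower, at -0.25 to -0.18, but they share exons and had like levels, so they amount to 1 signal.

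**Figure D3:**
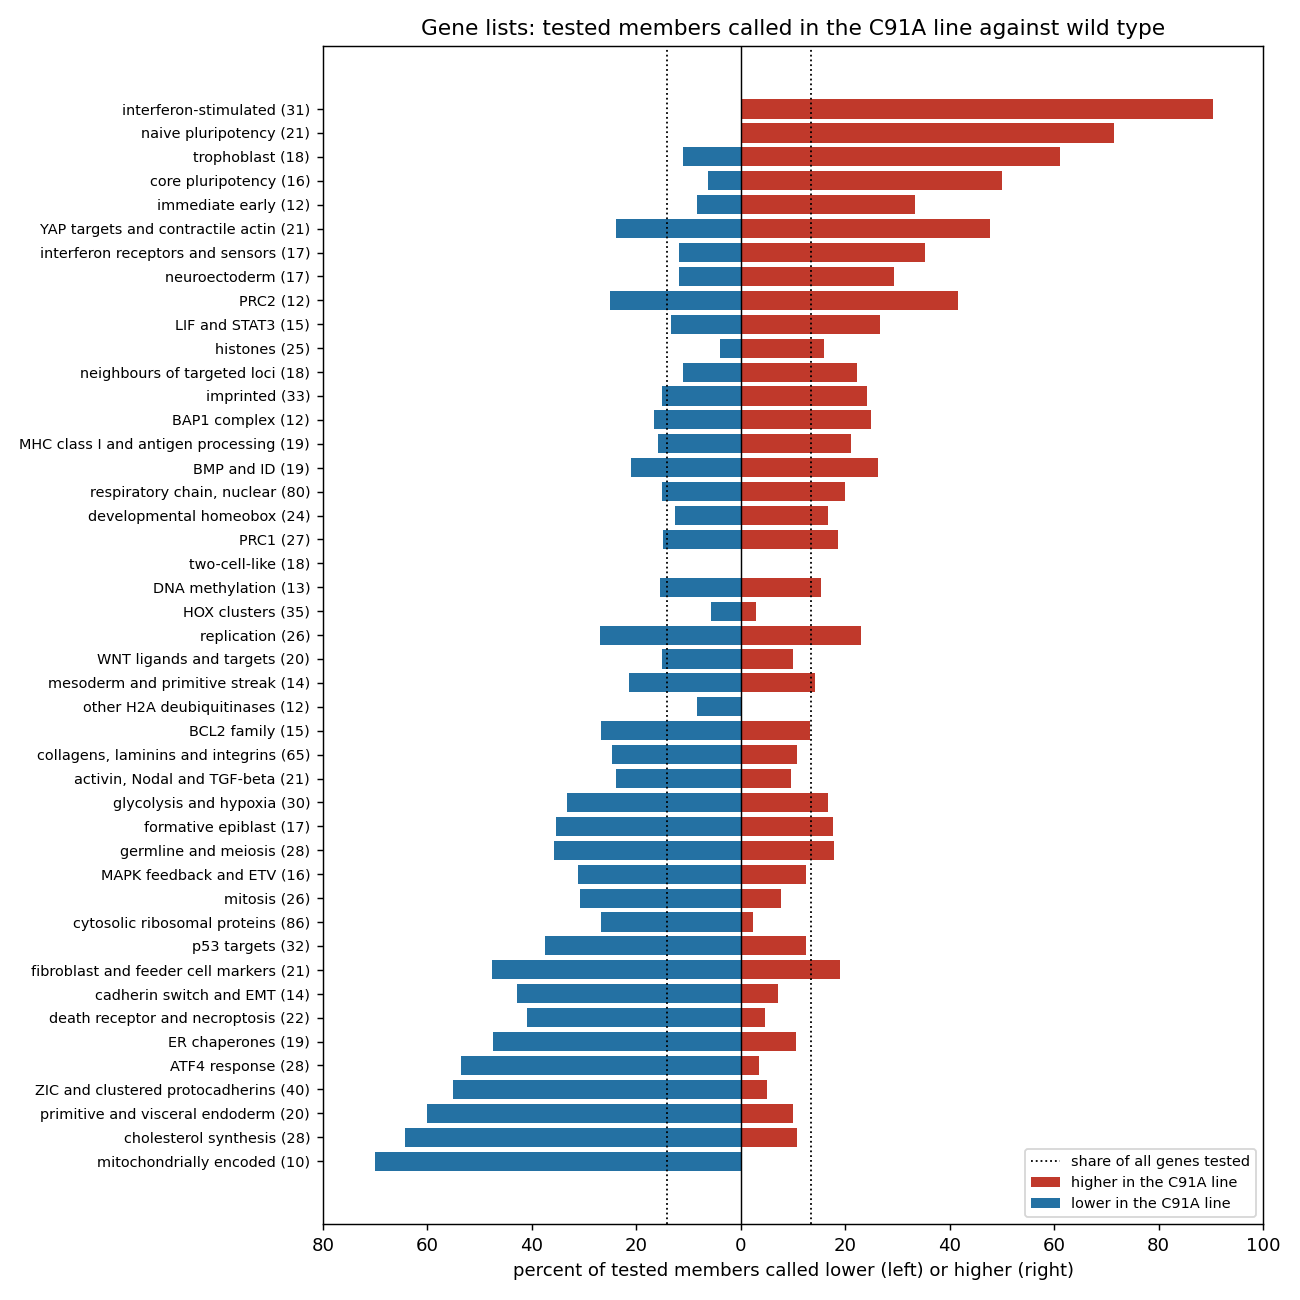
Share of tested members called higher (red, right) or lower (blue, left) in the C91A line for lists with at least 10 tested genes (number in brackets); dotted lines mark the shares of all genes, 13.4% and 14.2%. Interferon-stimulated genes reach 90.3% higher, and mitochondrially encoded genes 70% lower.

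Whole chromosomes also differed. On chromosome 11, 465 of 1325 tested genes were higher (35.1%) and 96 lower (7.25%), with a median of 0.15 on the log2 scale, and on chromosome 8, 37 of 859 were higher (4.31%) and 267 lower (31.1%), with a median of -0.13. Medians of the other 17 autosomes lay between -0.051 and 0.021, with 7.64% to 18.3% higher and 10.7% to 20.4% lower. The shift ran along both chromosomes 8 and 11. All 24 windows of 5 Mb on chromosome 8 had a median below 0, and 23 of 24 on chromosome 11 had one above 0. The exception was the last window, which starts at 120 Mb, where the median was -0.22 over 65 genes. There wild type libraries stood at 0.16 to 0.29 above the mean of the 18 libraries and those of all other groups at -0.20 to 0.085.

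A stretch of chromosome 6 was shifted as well. Neighbouring windows on the other chromosomes were scanned, after the values had been seen, for at least 3 in a row with 20 or more tested genes and a median of at least 0.1 in the same direction. The 1 run found covers 4 windows of chromosome 6, from 110 to 130 Mb, with medians of 0.144 to 0.233 and 29.5% to 61.1% of genes higher. Windows with fewer than 20 genes were not scanned, so runs among them were missed. On chromosome 12, for example, the windows from 35 to 40 and 40 to 45 Mb had medians of -0.268 and -0.286 over 9 and 11 genes. In the run on chromosome 6, 78 of the 180 tested genes were higher (43.3%) and 7 lower (3.89%), with a median of 0.17. Usp18, Nanog and Dppa3 lie in that run. Relative to the mean of the 18 libraries the stretch stood at 0.11 to 0.14 in the untreated C91A line and 0.053 to 0.13 in the same line after 4-OHT, and at -0.083 to -0.024 in the other 12 libraries.

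**Figure D4:**
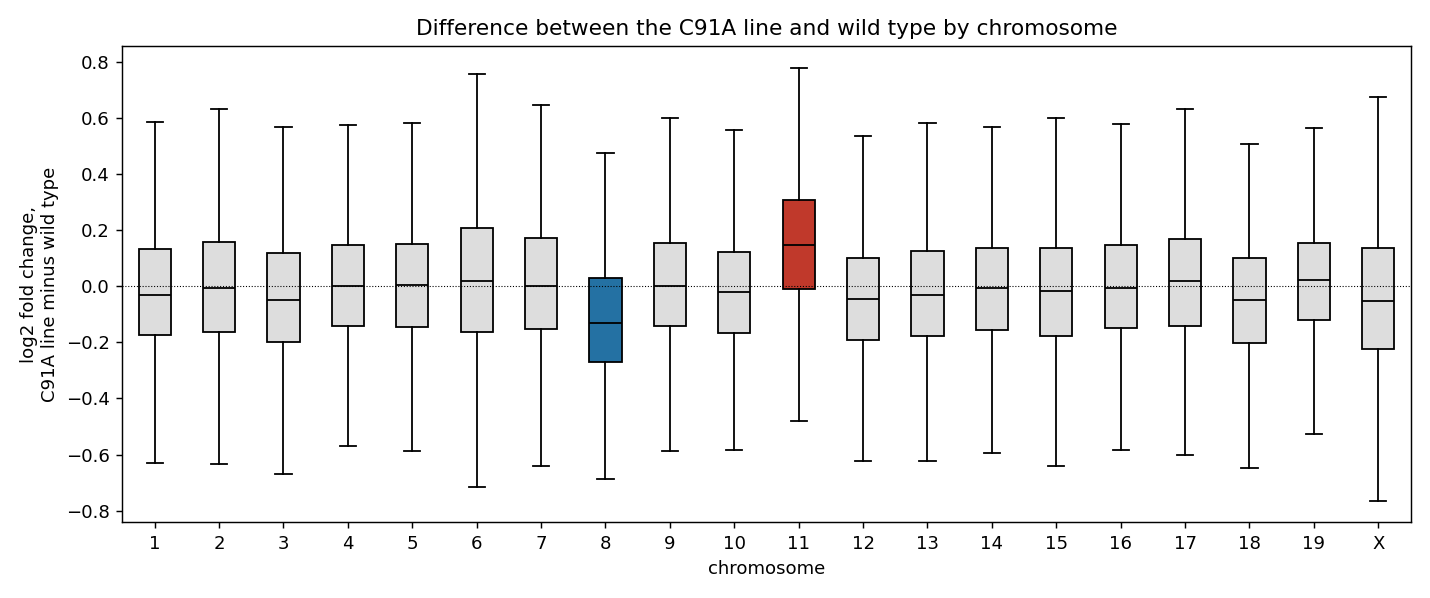
Box plot of log2 fold changes, C91A line minus wild type, of tested genes by chromosome (line: median; box: quartiles; whiskers: up to 1.5 box lengths; points beyond them not drawn). The boxes of chromosome 11 (red) and chromosome 8 (blue) are shifted up and down as a whole.

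Seen over the series, the groups on chromosomes 8 and 11 were not the same. Relative to the mean of the 18 libraries, chromosome 11 stood at 0.084 to 0.11 in the C91A line and at 0.081 to 0.11 in the same line after 4-OHT, and at -0.096 to -0.019 in the 12 libraries of the other groups. On chromosome 8 wild type was highest, at 0.16 to 0.19, the untreated C91A line next at 0.061 to 0.091, and the other 12 libraries lay at -0.11 to -0.019. The study holds no measure of DNA copies, and the part of copy number in these shifts was not tested. Both chromosomes together held 865 of the calls (18.5%, from 12.9% of the tested genes). Off them, 1759 genes were higher and 2040 lower.

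**Figure D5:**
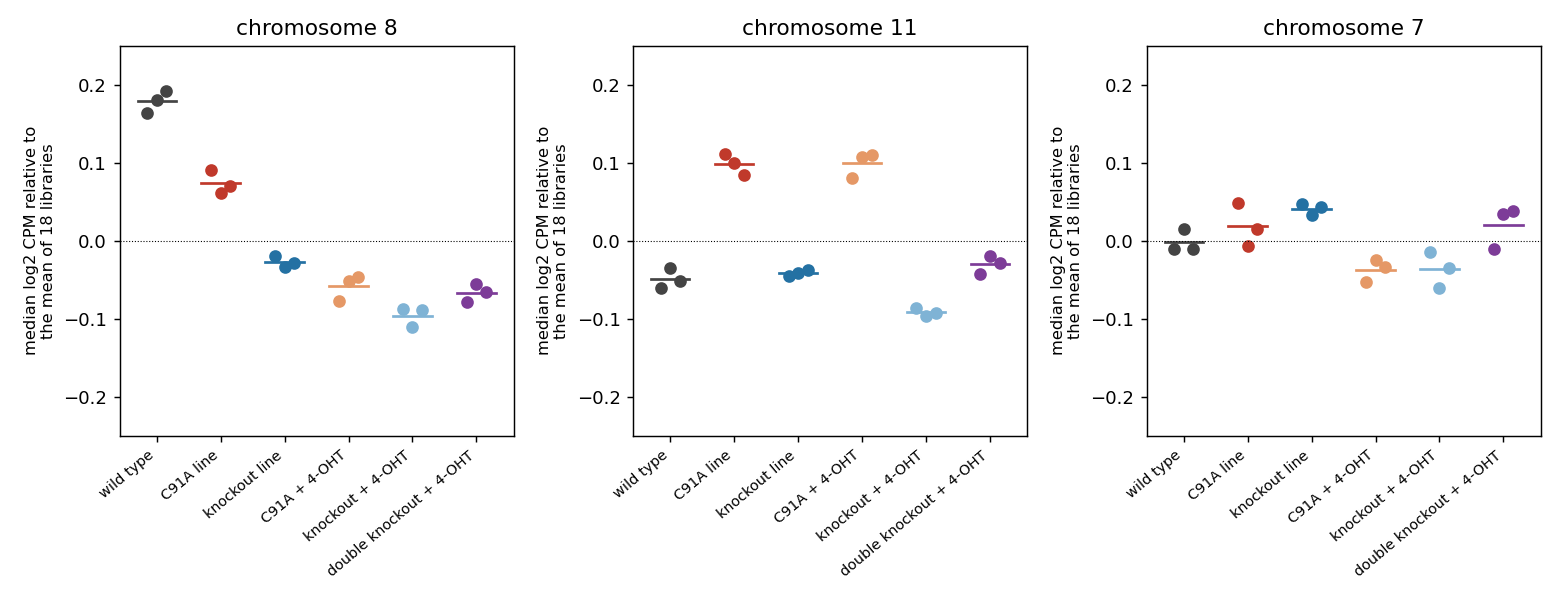
Median log2 CPM of the genes of chromosomes 8, 11 and, for reference, 7 in each library (points; line: group mean), relative to the mean of the 18 libraries and to all genes of that library. Wild type is highest on chromosome 8, and both C91A groups are highest on chromosome 11.

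All 6 tested genes of the Y chromosome were higher in the C91A line (median 1.44), with Kdm5d, a histone demethylase gene, at 0.110 to 0.316 against 1.5 to 2.51 CPM (3.43) and Ddx3y, of an RNA helicase, at 7.49 to 7.92 against 17.9 to 23.7 (1.5). Eif2s3y, a translation factor gene, was higher by 0.84. Uty was higher by 0.50 with overlapping ranges, a call lost without C91A library 2 (0.30, adjusted p = 0.24). Xist, which silences an X chromosome, was at 4.34 to 5.29 CPM over the 6 libraries with no call (-0.14, adjusted p = 0.58).

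The difference between the lines was set beside the effect of BAP1 knockout (cKO_D4_4OHT against cKO_D4), which shares no library with it and called 61.6% of genes. Of the genes higher in the C91A line, 27.6% were higher and 39.2% lower after knockout, against 31.3% and 30.3% of all genes. Of those lower in the C91A line, 51.8% were higher and 22.5% lower after knockout. In shares of the knockout lists, the 1244 genes lower in the line and higher after knockout made up 23.5% of the genes higher after knockout. Of all genes, 14.2% were lower in the line. The 887 genes higher in the line and lower after knockout made up 17.4% of those lower after knockout, against 13.4% of all genes higher in the line. Across the 16875 genes, which are not independent and share the scaling of the same fit, the fold changes had r = -0.043 and rho = -0.089.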

How the data were processed

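Polyadenylated RNA of 18 libraries in 6 groups was sequenced as single reads of 50 bases, from a kit (TruSeq version 2) that does not mark strand, so genes that overlap on opposite strands cannot be told apart. Alignment used GSNAP, of a version not stated, and the build GRCm38, per the submitters' processing notes. The authors deposited, per gene model and Entrez identifier, counts of uniquely aligned reads, the values analysed here, and a size-factor-adjusted RPKM. The deposited RPKM served only to recover the authors' size factors as an alternative scaling. Of 36528 genes, 31049 were named from RefSeq (GRCm38.p6), 77 from GENCODE M21 and 5402 not at all.

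Genes passing filterByExpr (16875) were scaled by TMM and fitted with edgeR 4.0.16 (limma 3.58.1, R 4.3.3), 1 mean per group, all 18 libraries sharing the spread, and tested by quasi-likelihood at adjusted p under 0.05. At a common dispersion of 0.002 (4.47% coefficient of variation), small differences pass, and p-values measure the spread between these libraries only. Replicates of a group differed beyond counting noise (chi-square per degree of freedom 1.77 to 5.78). SE is the absolute fold change (log2) over the root of the F statistic. The test was tried on simulated counts. Alternatives were DESeq2 1.42.0, other scalings, no filter, the 6 libraries alone, equal depth and each library left out.

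Members and gene lists were chosen with earlier results of these data known. Named were Bap1, Rnf2, Bcl2 and Mcl1, the BAP1 complex, the 10 highest and 10 lowest called genes (mean log2 CPM at least 2, ranges not overlapping), genes with at most 3 counts in each library of 1 group, Y-linked and X inactivation genes, and up to 4 called members of each other list by size. Other genes named, among them further interferon-stimulated genes and neighbours of Bap1, were chosen after their values were seen. Values of some genes are not reported here.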

Additional observations from a re-analysis of the deposited data

Results flagged for a closer look

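Of the genes named, 7 were at least 2-fold higher in the C91A line and at least 2-fold lower in the untreated knockout line, each against wild type. Both contrasts share the wild type libraries. They were picked for these opposite values, which fix the difference between the 2 lines, so it is given as a description. The ubiquitin ligase gene Mid1 stood at 3.57 in the C91A line and -1.10 in the knockout line (difference 4.66), and Lgals3bp at 2.68 and -1.74 (difference 4.42). The interferon-stimulated Mx2 stood at 3.64 and -2.09 (5.73) and Zbp1 at 1.03 and -1.17 (2.21). The X-linked homeobox genes Rhox5, Rhox6 and Rhox9 stood at 1.26, 1.28 and 1.35 in the C91A line and at -1.39, -1.63 and -1.35 in the knockout line (differences 2.64, 2.92 and 2.69). Over all 16875 tested genes, 509 were called in opposite directions in the 2 lines and between the lines. That count has no fold limit and is not confined to named genes, so the 7 cannot be set against it.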

How the results depend on the processing

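None of the 192 called named genes and neither chromosome median changed sign under the alternatives run. The balance of all calls did turn, from 2261 higher and 2403 lower to 2855 and 1898 with library totals, 2344 and 2326 with the authors' size factors, and 2127 and 2044 with the 6 libraries fitted alone. Without any 1 library, 1713 to 2173 genes were higher in the C91A line and 1856 to 2183 lower, and the chromosome medians were 0.14 to 0.16 (chromosome 11) and -0.14 to -0.11 (chromosome 8). The median of chromosome 11 moved beyond the spread of replicates without wild type library 2 (0.162) and that of chromosome 8 without C91A library 2 (-0.113). Library totals gave 0.180 and -0.097, and shifted the median of all genes from -0.003 to 0.030. Leaving out chromosomes 8 and 11 and the stretch of chromosome 6, and trying the medians under each setting, were chosen after seeing the data. Of the named genes called, 159 kept their call in all alternatives and 33 lost it in at least 1, of which 18 in an alternative other than leaving out a library. Low genes are limited by depth, as are calls with an adjusted p near 0.05. No paired analysis was possible because the labels give the replicates no numbers.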
